A study of Mus musculus with 6 samples.

Results

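The 10 core planar cell polarity genes, Vangl1, Vangl2, Celsr1, Celsr2, Celsr3, Fzd3, Fzd6, Dvl1, Dvl2 and Dvl3, were followed in the developing mouse cochlea. They were chosen by gene symbol, and all 10 were among the 24411 gene symbols of the count files and among the 15303 genes that passed the filter on low counts. Planar cell polarity is the alignment of cells within the plane of a sheet, and in the organ of Corti it orients the hair bundle, the group of stereocilia on top of each sensory hair cell. It is set up by membrane complexes at the borders between cells: Frizzled receptors, with the cytoplasmic Dishevelled proteins, gather on one side of a cell, and Vangl proteins, with Prickle, gather on the opposite side. The atypical cadherins of the Celsr family sit on both sides and bind each other across the border, and mice that lack Vangl2 or Celsr1, or both Fzd3 and Fzd6, have misoriented hair bundles.

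RNA was measured in microdissected cochlear sensory epithelium at postnatal day 9 (P9), to profile the tissue when inner hair cells (IHCs), the primary sensory cells of the cochlea, lack their intrinsic Ca2+ action potentials. Kir2.1-OE mice carried Otof rtTA+/- and Kir2.1+/-, in which doxycycline (DOX) induces Kir2.1, a K+ channel of the inwardly rectifying kind, in cells that use the promoter of Otof, a gene active in hair cells and mainly in IHCs. Controls were littermates with Otof rtTA+/- and Kir2.1+/+, labelled WT, and both groups, of either sex on the C57BL/6N background, drank water with DOX at 0.5 mg/ml. Each library came from 1 pool of 8 cochleae from 4 mice, and there were 3 Kir2.1-OE and 3 control pools, so the pool was the replicate.

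Each library held between 35430940 and 41205047 estimated reads assigned to genes. Kcnj2, the gene for Kir2.1, was at 3612, 3813 and 2213 normalized counts in the 3 Kir2.1-OE pools and at 236, 228 and 226 in the 3 control pools. Its log2 fold change was 3.80 (SE 0.199, adjusted p = 7.04e-05 by the quasi-likelihood test of edgeR, adjusted over all genes tested after Benjamini and Hochberg), which goes with the labels. Normalized counts are reads scaled to a common library size. They are not divided by transcript length, so they compare pools for 1 gene and not genes with each other. All marker genes listed for IHCs, for hair cells in general, for outer hair cells and for supporting cells had reads, none of them being at 0 in all libraries. The tissue also held neurons, glia, cartilage and other cells, and in such mixed tissue fewer cells of a type and less RNA per cell cannot be told apart.

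Of the 10 planar cell polarity genes, 3 were called higher with Kir2.1-OE and 0 lower. A call needs a fold change above 1.5 and, after adjustment, a p-value below 0.05. Over all genes tested, 15.5% were called higher and 5.08% lower, 20.5% in all, and 75.2% of all calls were in the higher direction, against 57.9% with upper quartile scaling. The 3 genes were Celsr2, Celsr3 and Dvl3. A further 3, Vangl1, Celsr1 and Fzd3, passed the adjusted p threshold in the higher direction with a fold change under 1.5, and 0 passed it in the lower direction. Without the fold threshold, 27.3% of all genes passed in the higher direction and 23.5% in the lower. In the lower direction 0 also passed an unadjusted p of 0.05, and DESeq2 and limma-voom called 0 lower and 3 and 4 higher. Over the 10 genes, the median log2 fold change was 0.25, against 0.01 over all genes tested. In 6 of the 10 the lowest Kir2.1-OE pool lay above the highest control pool, which was the case for 31.7% of all genes tested, and in 0 of the 10 the reverse held, against 29.9% of all genes.

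**Figure D1:**
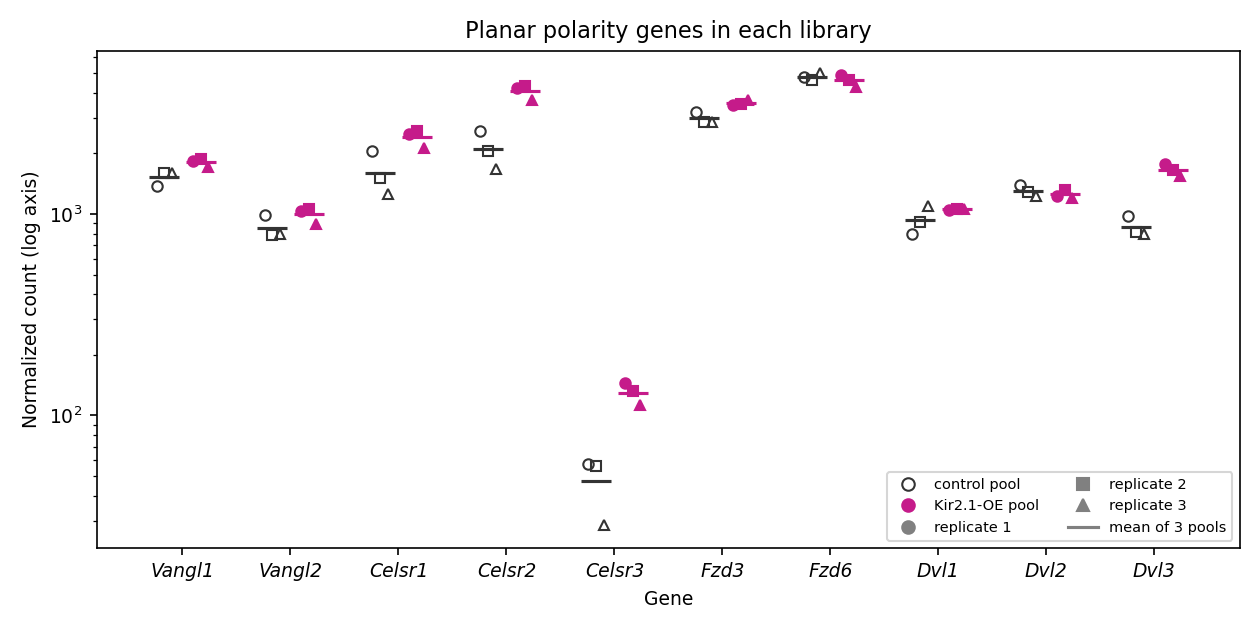
Normalized counts (log axis) of each planar cell polarity gene in the 3 control pools (open symbols) and the 3 Kir2.1-OE pools (filled symbols), with the replicate number given by the shape and the mean of 3 pools by the line. The groups stand apart for Celsr2, Celsr3 and Dvl3 and lie close together for Fzd6 and Dvl2, and Celsr3 is the least counted gene in all 6 pools.

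Vangl1 and Vangl2 encode the membrane proteins of the Vangl side of the complex, and loss of Vangl2 function in the Looptail mouse is the classic disturbance of hair bundle orientation. Vangl1 (ENSMUSG00000027860.15, chr3:102153583-102204693 of mm10, minus strand) was at 1840, 1878 and 1718 normalized counts in Kir2.1-OE pools and at 1377, 1600 and 1603 in control pools. All Kir2.1-OE pools lay above all control pools, but the gap between the groups was smaller than the SD of the controls. The means were 1812 ± 83.5 and 1527 ± 130 (SD, n = 3 each), a log2 fold change of 0.25 (SE 0.0825, adjusted p = 0.0313 by edgeR's quasi-likelihood test), under the fold threshold. The gene no longer passed the adjusted p threshold without control replicate 1, without Kir2.1-OE replicate 1 or without Kir2.1-OE replicate 2, where edgeR's adjusted p reached 0.139, with upper quartile scaling, where it was 0.124, or with the replicate number as a block, where it was 0.0663. Vangl2 (ENSMUSG00000026556.15, chr1:172000960-172028444, minus strand) was at 1032, 1065 and 893 in Kir2.1-OE pools and at 994, 786 and 792 in controls. The groups overlapped, since control replicate 1 lay above Kir2.1-OE replicate 3, and the log2 fold change was 0.22 (SE 0.114, adjusted p = 0.139 by edgeR). Without control replicate 1 it was 0.34 with an adjusted p of 0.0296 in the same edgeR test.

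Celsr1, Celsr2 and Celsr3 encode large cadherins that span the membrane several times, of which Celsr1 is the best known in epithelia and Celsr3 is known mostly from axon guidance in neurons. Celsr1 (ENSMUSG00000016028.10, chr15:85898929-86033777, minus strand) was at 2490, 2582 and 2129 normalized counts in Kir2.1-OE pools and at 2065, 1504 and 1257 in controls. The groups did not overlap, but control replicate 1 came close to Kir2.1-OE replicate 3. The means, 2401 ± 239 and 1609 ± 414 (SD, n = 3 each), gave a log2 fold change of 0.58 (SE 0.160, adjusted p = 0.0139 by edgeR's quasi-likelihood test), just under the 1.5-fold limit at 1.49-fold and so not called. Leaving out control replicate 1 raised it to 0.80 and leaving out Kir2.1-OE replicate 3 to 0.64, each of which was a call, and without Kir2.1-OE replicate 1 the adjusted p from edgeR was 0.0576.

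Celsr2 (ENSMUSG00000068740.13, chr3:108390851-108415552, minus strand) was at 4210, 4337 and 3678 normalized counts in Kir2.1-OE pools and at 2585, 2061 and 1682 in controls. Every Kir2.1-OE pool was far above every control pool. The means were 4075 ± 350 and 2109 ± 454 (SD, n = 3 each), and Celsr2 rose by a log2 fold change of 0.95 (SE 0.140, adjusted p = 6.41e-04 by edgeR's quasi-likelihood test). Celsr3 (ENSMUSG00000023473.13, chr9:108826320-108852969, plus strand), the least counted of the 10 genes, was at 145, 132 and 113 in Kir2.1-OE pools and at 57.2, 56.3 and 28.5 in controls. It rose from 47.3 ± 16.3 to 130 ± 15.9 (SD, n = 3 each), a log2 fold change of 1.45 (SE 0.274, adjusted p = 0.00214 by edgeR's quasi-likelihood test) that was the largest among the 10 genes. The size rested in part on control replicate 3, without which it was 1.19. Both calls held when any 1 of the 6 libraries was left out. All 3 Celsr genes had their lowest control value in control replicate 3 and their lowest Kir2.1-OE value in Kir2.1-OE replicate 3. Marker genes of spiral ganglion neurons moved with the groups: their summed normalized counts were 38033, 24546 and 58612 in the Kir2.1-OE pools and 17435, 20127 and 12714 in the control pools, in the order of the replicate numbers. Control replicate 3 was thus lowest on both measures, whereas Kir2.1-OE replicate 3 had the highest neuron sum and the lowest Celsr3 count. The part of nerve tissue in the Celsr values was not tested.

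Fzd3 and Fzd6 encode the Frizzled receptors that act together, and partly in place of each other, in hair bundle orientation. Fzd3 (ENSMUSG00000007989.7, chr14:65192449-65262463, minus strand) was at 3484, 3508 and 3683 normalized counts in Kir2.1-OE pools and at 3222, 2878 and 2881 in controls, without overlap. Its log2 fold change was 0.25 (SE 0.0715, adjusted p = 0.0163 by edgeR's quasi-likelihood test), under the fold threshold. In 4 of the 6 fits that left out 1 library, those without Kir2.1-OE replicate 2, Kir2.1-OE replicate 3, control replicate 2 or control replicate 3, edgeR's adjusted p lay above the threshold, at up to 0.0648, with upper quartile scaling it was 0.0983, and with the replicate block it was 0.0504. Fzd6 (ENSMUSG00000022297.15, chr15:39006034-39038188, plus strand) was at 4920, 4644 and 4282 in Kir2.1-OE pools and at 4815, 4627 and 4999 in controls, so the groups were interleaved. Its log2 fold change was -0.06 (SE 0.0746, adjusted p = 0.526 by edgeR), and it was the most counted of the 10 genes in both groups by its mean, 4615 ± 320 against 4813 ± 186 (SD, n = 3 each).

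Dvl1, Dvl2 and Dvl3 encode the Dishevelled proteins, which pass on signals from Frizzled both to the polarity machinery and to beta-catenin. Dvl1 (ENSMUSG00000029071.16, chr4:155847402-155859303, plus strand) was at 1051, 1056 and 1055 normalized counts in Kir2.1-OE pools and at 801, 918 and 1099 in controls. The Kir2.1-OE values lay inside the control range, with a log2 fold change of 0.17 (SE 0.111, adjusted p = 0.237 by edgeR). Without control replicate 3, the only control pool above the Kir2.1-OE pools, it was 0.29 with an adjusted p of 0.0388 in edgeR's test. Dvl2 (ENSMUSG00000020888.16, chr11:70000595-70012301, plus strand) was at 1234, 1317 and 1206 in Kir2.1-OE pools and at 1390, 1285 and 1230 in controls. These overlapped as well, with a log2 fold change of -0.06 (SE 0.0784, adjusted p = 0.584 by edgeR). Exons of Dvl2 share 1151 bases with exons of Acadvl on the opposite strand, and since no strand setting is stated, reads there may belong to either gene.

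Dvl3 (ENSMUSG00000003233.12, chr16:20516982-20534010, plus strand) was at 1778, 1652 and 1541 normalized counts in Kir2.1-OE pools and at 975, 812 and 792 in controls. The lowest Kir2.1-OE pool was well above the highest control pool, and the pools within each group were close to each other. Dvl3 rose from 860 ± 100.4 to 1657 ± 118 (SD, n = 3 each), a log2 fold change of 0.95 (SE 0.0995, adjusted p = 1.74e-04 by edgeR's quasi-likelihood test). The call held in each of the 6 fits without 1 library, with log2 fold changes between 0.88 and 1.05. No other annotated gene had exons that share bases with those of Dvl3.

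The promoters of the 3 called genes, with those of Dvl1 and Dvl2 as members of the Dvl family that were not called, are shown to set the genes that rose beside near relatives that did not pass the test. RefSeq's table for GRCm38.p6, the assembly that mm10 also names, had an entry for 6 of the 10 genes. Each line gives the 100 bases before the transcription start, 5′ to 3′ on the strand of the gene, with capitals marking every GC box (GGGCGG on either strand, the letters bound by Sp1 and related factors), overlaps included.
Celsr2, chr3:108415580-108415679, minus strand: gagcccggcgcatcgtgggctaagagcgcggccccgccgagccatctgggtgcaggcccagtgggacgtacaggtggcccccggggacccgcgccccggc
Celsr3, chr9:108825945-108826044, plus strand: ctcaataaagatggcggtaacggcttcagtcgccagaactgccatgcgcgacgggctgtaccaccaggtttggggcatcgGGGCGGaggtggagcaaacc
Dvl3, chr16:20516886-20516985, plus strand: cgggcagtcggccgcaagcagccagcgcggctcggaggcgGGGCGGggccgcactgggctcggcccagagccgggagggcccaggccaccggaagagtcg
Dvl1, chr4:155847302-155847401, plus strand: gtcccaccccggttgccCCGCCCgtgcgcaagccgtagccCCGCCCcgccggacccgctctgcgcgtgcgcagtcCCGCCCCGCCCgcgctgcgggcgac
Dvl2, chr11:70000492-70000591, plus strand: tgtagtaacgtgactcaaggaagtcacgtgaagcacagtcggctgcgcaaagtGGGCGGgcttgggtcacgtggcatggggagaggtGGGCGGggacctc
Over the 250 bases before the start, the GC box occurred 0 times for Celsr2, 2 times for Celsr3, 3 times for Dvl3, 5 times for Dvl1 and 4 times for Dvl2. At least 1 GC box stood in 32.7% of the 32851 promoters of the table. The letters CAGCTG, a form of the E-box, were found in the Dvl3 window only among these 5, and in 13.0% of all promoters. Other forms of the E-box were not counted, and CACGTG, which is such a form, stands in the Dvl2 sequence shown. CTTTGA, the core letters of the motif of the TCF/LEF factors that act with beta-catenin, was in none of the 5 windows and in 13.8% of all promoters. The GC box was thus present in 2 of the 3 called genes and in both genes shown that were not called. Vangl2, also not called and not shown, had 2 GC boxes in its window. The GC content of the 5 windows lay between 58.0% for Celsr3 and 75.2% for Celsr2.

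The fold changes of all genes in these libraries moved with transcript length, and the planar cell polarity genes are long. The longest annotated transcript of the 10 genes had a median length of 6529.5 nt, against 3381.5 nt over the genes tested, and each of the 10 lay above that value. Across the series the median log2 fold change was 0.81 for the 886 genes with a longest transcript over 8000 nt, of which 64.0% were called higher, and -0.50 for the 655 genes under 1000 nt. It was 0.29 for the 4899 genes of 4000 to 8000 nt. The Celsr genes, with 10879, 10598 and 11571 nt, and Fzd3, with 12734 nt, belong to the longest class, where Celsr3 and Celsr2 lay above the median of 0.81 and Celsr1 and Fzd3 below it. Of the other 6, Vangl1, Vangl2, Fzd6, Dvl1 and Dvl2 lay between 4325 and 6531 nt and had fold changes below the median of 0.29 for their class. Dvl3 had the shortest longest transcript of the 10, 3983 nt, close to the upper bound of its class of 2000 to 4000 nt. The median length in this class was 2979.5 nt and the median log2 fold change -0.06. There 419 of 6258 genes, or 6.70%, were called higher, against 26.3% in the next class, of 4000 to 8000 nt.

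**Figure D2:**
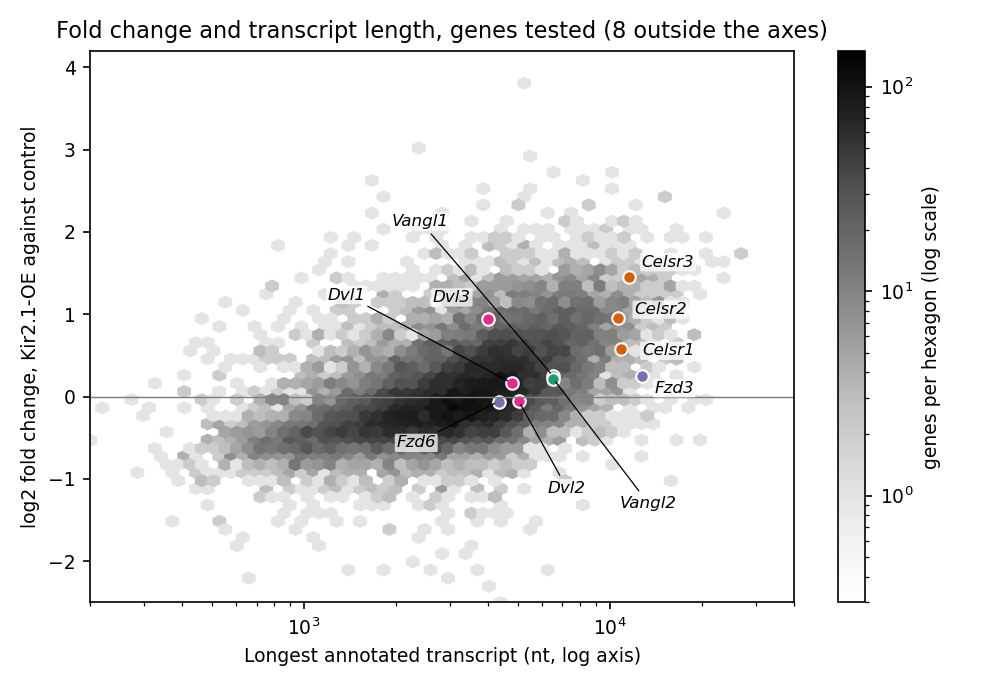
Log2 fold change of Kir2.1-OE against control (vertical axis) by the length of the longest annotated transcript (nt, log axis), with the number of genes shown by the grey of each hexagon and the 10 planar cell polarity genes by coloured points. The cloud rises to the right, with Celsr3 and Celsr2 in its upper right part, Fzd3 at its lower right edge and Dvl3 above the bulk of genes of its length, and 8 genes lie outside the axes.

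The fit was therefore repeated with an offset that removes from each library its trend on transcript length and GC content. The parts of length and of GC content in the resulting shifts were not separated. With the offset, 1 of the 10 genes was called higher and 0 lower, against 6.87% and 2.96% of all genes tested. Without the fold threshold, 1 passed the adjusted p in the higher direction, where 16% of all genes did. The gene was Dvl3, with a log2 fold change of 0.67 (SE 0.0952, adjusted p = 0.00191 by edgeR's quasi-likelihood test). Celsr2 went from 0.95 to -0.14 (SE 0.119, adjusted p = 0.397 by edgeR) and Celsr3 from 1.45 to 0.33 (SE 0.236, adjusted p = 0.306 by edgeR), so neither call was kept. The median over the 10 genes went from 0.25 to -0.28, and 8 of the 10 were below 0. In the lower direction 5 passed edgeR's adjusted p without the fold threshold, where 16.7% of all genes did. These were Vangl2 at -0.41 (adjusted p = 0.0249), Celsr1 at -0.54 (adjusted p = 0.0183), Fzd3 at -0.34 (adjusted p = 0.00881), Dvl1 at -0.37 (adjusted p = 0.0393) and Dvl2 at -0.58 (adjusted p = 0.00198), each with a fold change under 1.5. Vangl1, at -0.21 (adjusted p = 0.0575 by edgeR), and Fzd6, at -0.17 (adjusted p = 0.0925 by edgeR), did not pass.

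The offset depended on the transcript chosen for the length, which was tried after the data had been seen. The longest transcript of Dvl1 is annotated with a retained intron, and the longest of the transcripts matched to curated RefSeq entries is 3358 nt for Dvl1 and 2968 nt for Dvl2, against 4774 and 5037 nt. With these lengths Dvl1 was at -0.17 (adjusted p = 0.281 by edgeR) and Dvl2 at -0.26 (adjusted p = 0.0309 by edgeR), while Dvl3 was called higher at 0.63 (adjusted p = 0.00273 by edgeR). With the median annotated transcript, which is 664 nt for Celsr2 and 767 nt for Celsr3, against 10598 and 11571 nt for their longest, both remained called at 1.05 and 1.53. Dvl3 was the member called higher in all 5 settings of the offset, at 0.63 to 0.68, and in all 6 fits that combined the offset with leaving out 1 library, at 0.62 to 0.79. In those 6 fits Dvl2 was called lower in 4 and Celsr1 in 3. The 886 longest genes lay at a median log2 ratio to the mean library of 0.49, 0.38 and 0.32 in the Kir2.1-OE pools and of -0.41, -0.32 and -0.46 in the control pools. Length and genotype thus moved together in all 6 pools, and what set the trend was not tested.

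**Figure D3:**
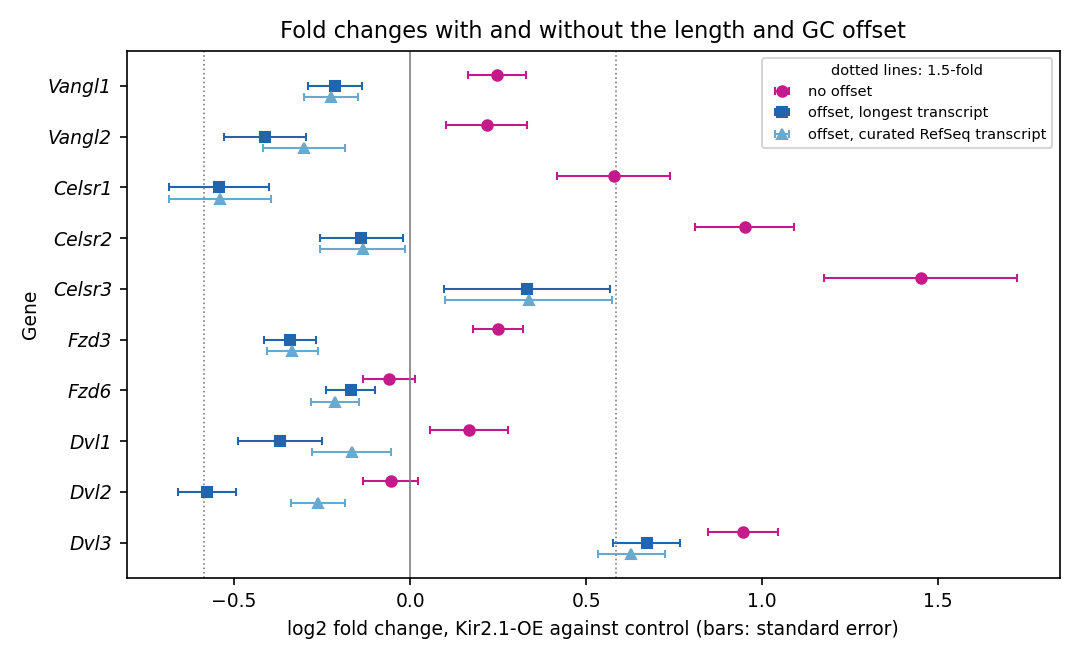
Log2 fold change of each planar cell polarity gene, Kir2.1-OE against control, without an offset (circles) and with the length and GC offset from the longest transcript (squares) or from the curated RefSeq transcript (triangles), with standard errors as bars and 1.5-fold as dotted lines. Dvl3 lies beyond the dotted line in all 3, Celsr2 and Celsr3 only without the offset, and Dvl2 moves with the transcript used.

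Levels of different genes were compared as reads per kb of the longest transcript, scaled to a sum of 1000000 in each library. On this scale Fzd6 had the highest level in control pools, 70.7 ± 1.93 (SD, n = 3), and Celsr3 the lowest, 0.261 ± 0.0912, a 271-fold range. Between them the control order was Dvl2 at 16.4 ± 1.03, Fzd3 at 14.9 ± 0.919, Vangl1 at 14.9 ± 1.35, Dvl3 at 13.7 ± 1.55, Celsr2 at 12.7 ± 2.71, Dvl1 at 12.5 ± 1.96, Celsr1 at 9.40 ± 2.39 and Vangl2 at 8.35 ± 1.11. Between neighbours in this order, the step from Fzd6 to Dvl2 and that from Vangl2 to Celsr3 were free of overlap between the pools, and neighbours among the 8 genes in the middle overlapped. Genes further apart in the order did not all overlap, as Dvl2, Fzd3, Vangl1 and Dvl3 lay above Celsr1 and Vangl2 in every control pool. In Kir2.1-OE pools Fzd6 at 77.7 ± 7.41 and Celsr3 at 0.818 ± 0.120 kept the ends of the order, and Dvl3 at 30.3 ± 3.01 and Celsr2 at 28.0 ± 2.68 followed Fzd6. These 2 overlapped each other and lay above Fzd3 at 20.3 ± 0.654 and Vangl1 at 20.2 ± 1.19 in every pool. Fzd3 and Vangl1 overlapped each other, and below them came Dvl2 at 18.1 ± 0.767, Dvl1 at 16.1 ± 0.467, Celsr1 at 16.1 ± 1.74 and Vangl2 at 11.1 ± 1.12, where Celsr1 overlapped both Dvl1 and Dvl2. The levels depended on the transcript used for the length. With the median annotated transcript Fzd6 and Celsr3 still had the highest and the lowest control level, but with a 104-fold range, and Celsr2 at 89.8 ± 19.4 and Vangl1 at 60.2 ± 5.21 came next below Fzd6 without overlap between neighbours. With the curated RefSeq transcript Dvl2 was at 24.7 ± 1.56 in controls, above all other members but Fzd6 without overlap with its lower neighbour. This scale makes the levels of a library add up to a fixed sum, in which short genes weigh heavily, so the genotypes were compared by normalized counts and not by these levels.

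Ratios between paralogs within a library do not depend on how libraries are scaled to each other. The log2 ratio of Celsr2 to Celsr1 was 0.80, 0.79 and 0.83 in the Kir2.1-OE pools and 0.36, 0.49 and 0.46 in the control pools. That of Celsr3 to Celsr1 was -4.19, -4.38 and -4.32 against -5.26, -4.83 and -5.55. In both, every Kir2.1-OE pool lay above every control pool, and the differences were 0.37 and 0.92 on the log2 scale. The Celsr transcripts are similar in length and in GC content, which was 58.8%, 58.4% and 57.8%, and the differences with the offset were 0.40 and 0.91. As shares of the summed Celsr level, Celsr1 was 42.0 ± 1.17% in controls and 35.8 ± 0.329% in Kir2.1-OE pools, Celsr2 56.9 ± 1.09% and 62.4 ± 0.351%, and Celsr3 1.15 ± 0.277% and 1.82 ± 0.121% (SD, n = 3 each). With the median transcript, which is far shorter than the longest for Celsr2 and Celsr3, Celsr1 was 11.7% and 9.27% and Celsr2 86.6% and 88.3% of the sum.

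The log2 ratio of Dvl3 to Dvl1 was 1.02, 0.91 and 0.81 in the Kir2.1-OE pools and 0.55, 0.09 and -0.21 in the control pools, a difference of 0.77 without overlap, and of 1.04 with the offset. Dvl3 made up 47.0 ± 1.77% of the summed Dvl level in Kir2.1-OE pools and 32.1 ± 3.10% in controls (SD, n = 3 each), while Dvl2 made up 28.1 ± 1.14% and 38.5 ± 1.99%. These shares also moved with the transcript used: Dvl3 was at 33.0% and 20.4% with the median transcript and at 36.1% and 23.1% with the curated RefSeq transcript, and Dvl2 at 48.1% and 59.5% and at 36.6% and 46.9%. The ratio of Dvl2 to Dvl1 overlapped between groups, with a difference of -0.23. For Fzd6 over Fzd3 the difference was -0.31 without overlap, but it turned to 0.17 with overlap once the offset was applied, and the longest transcripts of the pair are 4325 and 12734 nt. Vangl2 over Vangl1 differed by -0.03 with overlap. Exact permutation tests over the 6 pools, two-sided, gave p = 0.10 for the 4 ratios without overlap, the smallest p that 3 against 3 allows, p = 0.4 for Dvl2 over Dvl1 and p = 1.0 for Vangl2 over Vangl1. Adjusted over the 6 ratios the exact p-values were 0.15, 0.48 and 1.0.

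**Figure D4:**
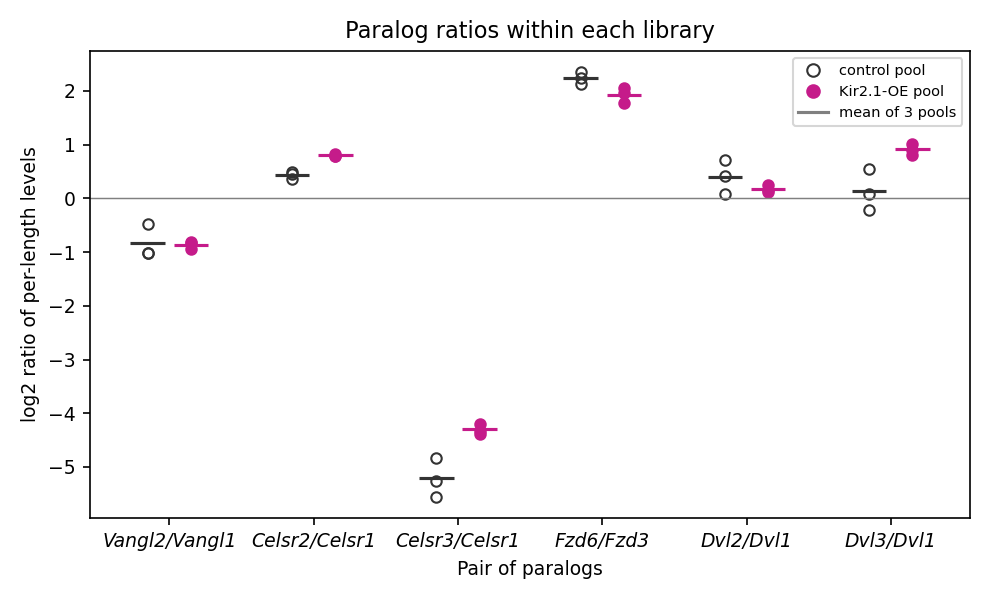
Log2 ratio of per-length levels of 2 paralogs within each library (vertical axis) for the 6 pairs compared, with control pools as open and Kir2.1-OE pools as filled circles and the mean of 3 pools as a line. The pools of the groups stand apart for Celsr2/Celsr1, Celsr3/Celsr1, Fzd6/Fzd3 and Dvl3/Dvl1 and overlap for Vangl2/Vangl1 and Dvl2/Dvl1.

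Other genes of the polarity and Wnt pathways were read from 7 lists. Their counts stand beside 15.5% of all genes tested called higher and 5.08% lower, and with the offset 6.87% and 2.96%. Without the offset and with all 6 libraries, edgeR with TMM scaling, DESeq2 and limma-voom called no gene of the 7 lists lower, though at an unadjusted p under 0.05 between 0 and 5 genes per list were lower. Without the fold threshold, 23.5% of all genes were lower at edgeR's adjusted p. With upper quartile scaling 1 secreted Wnt inhibitor and 1 gene of hair bundle orientation were called lower. Of 19 further planar cell polarity genes, 2 were called higher and 0 lower, with a median log2 fold change of 0.12, and with the offset 1 was called higher and the median was -0.10. Nos1ap, an adaptor that binds Scrib and Vangl complexes, rose from 85.1 ± 7.27 to 161 ± 31.4 normalized counts (SD, n = 3 each), a log2 fold change of 0.92 that was 0.96 with the offset and a call in both. Smurf1, a ubiquitin ligase that acts on Prickle, rose by 0.73 but was at 0.19 with the offset. Wdpcp, a gene of cilia and polarity, was at the other end of the list with -0.45 (adjusted p = 0.00242 by edgeR, fold change under 1.5). The partners of Vangl on its side of the complex, Prickle1 at 0.20 (adjusted p = 0.105 by edgeR) and Prickle2 at 0.13 (adjusted p = 0.361 by edgeR), did not pass. Scrib, a scaffold that interacts with Vangl2 genetically in hair bundles, was at 0.56 and Ptk7, a polarity receptor, at 0.22, with edgeR's adjusted p at 9.33e-04 and 0.0176 but fold changes under 1.5 and values of -0.17 and -0.21 with the offset. Ror2, a receptor of Wnt5a, was at 0.27 (adjusted p = 0.129 by edgeR).

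Fat and Dachsous cadherins form a separate polarity system of giant adhesion molecules. Of its 6 genes tested, 5 were called higher, namely Fat1, Fat2, Fat3, Fat4 and Dchs1, where 15.5% of all genes were. The median log2 fold change of the 6 was 1.11. Fat4, the main vertebrate partner of Dchs1, rose from 891 ± 160 to 1970 ± 129 normalized counts (SD, n = 3 each), a log2 fold change of 1.14, and Dchs1 rose by 0.59, Fat3 being the highest at 1.54. Fjx1, which encodes a relative of the kinase that modifies Fat and Dachsous, was the lowest at 0.15 (adjusted p = 0.193 by edgeR). The median longest transcript of the list was 14671 nt, and with the offset 0 of the 6 were called by edgeR, with a median of 0.01, Fat4 at 0.05 and Dchs1 at -0.50.

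Among the other Frizzled receptors and LRP co-receptors, 3 of 10 were called higher, Fzd5, Lrp5 and Lrp6. None was called lower, and over all genes 15.5% were called higher and 5.08% lower. Lrp6, a co-receptor of the beta-catenin branch, was the highest at 0.89 and Fzd9 the lowest at -0.29, and with the offset 0 were called and Lrp6 was at 0.30. Of 15 Wnt ligands and secretion genes tested out of 19, 0 were called in either direction by edgeR, and 0 by DESeq2 and limma-voom. At edgeR's unadjusted p of 0.05, and also at its adjusted p, 3 passed in the higher and 2 in the lower direction. Over all genes 27.3% and 23.5% passed the adjusted p. When control replicate 2 was left out, 1 gene of the list was called higher. With the offset 1 of the 15 was called higher, Wnt16 at 0.69 (adjusted p = 0.0446 by edgeR), which was at 0.49 without it (adjusted p = 0.0963). Wnt5a, the ligand best known in cochlear polarity, was at 12803 ± 92.4 normalized counts in Kir2.1-OE pools and 10465 ± 819 in controls (SD, n = 3 each), a log2 fold change of 0.29 (adjusted p = 0.0111 by edgeR) that was -0.16 with the offset. The ends of the list were low genes, Wnt8b at 1.02 (adjusted p = 0.159 by edgeR) and Wnt11 at -0.58 (adjusted p = 0.117 by edgeR). Of 10 secreted Wnt inhibitors tested, 1 was called higher and 0 lower. Sfrp5 rose by 0.92, and by 0.98 with the offset. Sfrp1 was at 11771 ± 333 against 17024 ± 2936 normalized counts (SD, n = 3 each), a log2 fold change of -0.53 under the fold threshold, and with the offset it was called lower at -0.74. Frzb, another member of the Sfrp family, was at -0.16 (adjusted p = 0.103 by edgeR). Without control replicate 3, 2 of the 10 inhibitors were called lower.

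Of the 18 genes that place and orient the hair bundle within the cell, rather than across the tissue, 3 were called higher and 0 lower. Over all genes tested these shares were 15.5% and 5.08%. Past edgeR's adjusted p were 7 in the higher and 5 in the lower direction, where 27.3% and 23.5% of all genes were. Ccdc88c, which encodes Daple, a protein that binds Dishevelled and Gnai, rose from 186 ± 32.9 to 433 ± 60.9 normalized counts (SD, n = 3 each), a log2 fold change of 1.22 that was 0.41 with the offset, and Pard3 was also called. Stk32a, a kinase known from the reversal of bundle orientation in vestibular hair cells, was the highest at 1.31 and was called at 1.09 with the offset. Emx2, the transcription factor that reverses bundle orientation, was at 0.16 (adjusted p = 0.352 by edgeR). Gnai3 was at -0.39 (adjusted p = 0.00422 by edgeR, under 1.5-fold), Gpsm2, which binds it, at 0.09 (adjusted p = 0.392 by edgeR), and Mkks, a gene of the basal body, was the lowest at -0.57 (adjusted p = 0.00259 by edgeR, under 1.5-fold). Without Kir2.1-OE replicate 3, control replicate 2 or control replicate 3, 1 gene of the list was called lower.

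In the beta-catenin branch, which shares Frizzled and Dishevelled with the polarity branch, 4 of 16 genes were called higher and 0 lower. Those called were Gsk3b, Axin2, Nkd2 and Znrf3, where 15.5% of all genes were called higher. In the higher direction 11 of the 16 passed edgeR's adjusted p, against 27.3% of all genes. The count of 4 was 2 without Kir2.1-OE replicate 1, Kir2.1-OE replicate 2 or control replicate 3, and 1 with upper quartile scaling. Axin2, a target gene of beta-catenin, rose from 1372 ± 112 to 2227 ± 281 normalized counts (SD, n = 3 each), a log2 fold change of 0.70. Lgr5, another target and a marker of supporting cells, was at 0.39 (adjusted p = 0.00348 by edgeR, under 1.5-fold), and Sp5, a target as well, was the lowest at -0.13 (adjusted p = 0.489 by edgeR). With the offset 0 of the 16 were called, with Axin2 at 0.39 (adjusted p = 0.00876 by edgeR) and Lgr5 at 0.29 (adjusted p = 0.0212 by edgeR).

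**Figure D5:**
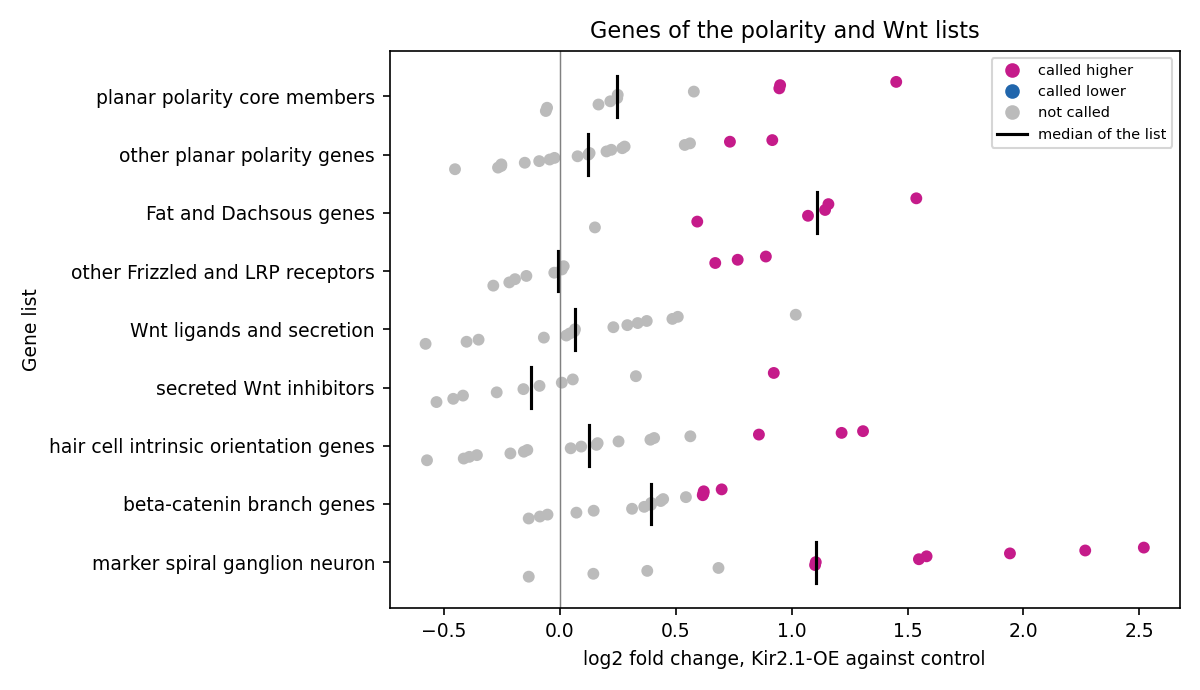
Log2 fold change of Kir2.1-OE against control (horizontal axis) for each gene tested of the polarity and Wnt lists and of the neuron markers (rows), without the offset, with called genes in colour and the median of each list as a bar. The medians lie at 1.11 for the Fat and Dachsous genes and 1.10 for the neuron markers, and at 0.39 or less for the other lists.

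Markers of other cell types also differed between the pools. Among all genes tested, 15.5% were called higher and 5.08% lower, and with the offset 6.87% and 2.96%. Of 11 markers of spiral ganglion neurons 7 were called higher, and 7 with the offset, with a median log2 fold change of 1.10 and none at 0. Of 6 markers of glia 2 were called higher, and 3 with the offset. Their summed normalized counts were 353152 to 464535 in Kir2.1-OE pools against 257201 to 327441 in controls. For 5 cartilage markers, 2 of the 4 tested called higher and 1 with the offset, the sums were 686834 to 836220 against 358334 to 457668. For 5 IHC markers the sums were 9547 to 11191 against 7112 to 7909, with 2 called higher. Of these 5, 3 lay above all control pools and 1 below, where 31.7% and 29.9% of all genes tested did. With the offset 1 IHC marker was called higher, and the median log2 fold change went from 0.32 to -0.02. The 10 supporting cell markers summed to 241930 to 260228 against 276223 to 394171, with 1 called higher and 2 lower, and with the offset 0 and 1. Their part in the values of the planar cell polarity genes was not tested.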

How the data were processed

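RNA was sequenced from 6 pools of P9 cochleae. The authors enriched poly(A) RNA, sequenced read pairs, mapped them to mm10 with the nf-core RNA pipeline at standard parameters and quantified genes with Salmon. They deposited expected counts (estimated reads per gene symbol, not divided by length or library size). Versions, annotation, strand setting and duplicate removal are not given in the sources used here.

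Samples were grouped by the genotype labels. Expected counts were rounded, and R 4.3.3 with edgeR 4.0.16 gave the tests (quasi-likelihood, with TMM scaling, filterByExpr and adjustment over 15303 genes after Benjamini and Hochberg). Calls needed an adjusted p under 0.05 and a fold change above 1.5, the study's thresholds. The model was tested on simulated data. Pools of 1 group differed by more than counting noise (chi-square per degree of freedom 16.2 to 32.3). With totals of 35430940 to 41205047, 3 counts are at most 8.47e-06% of a library.

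Transcript length and GC content came from GENCODE vM21 (mm10), matched for 23376 symbols and, through older symbols, for 676. The offset is a robust loess trend (span 0.4), fitted to the log2 ratio of a library to the mean of all 6, on log length and GC content. Paralog ratios were compared by exact permutation tests. Promoters came from RefSeq.

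The genes named are the 10 members, Kcnj2, 18 pathway genes set by name, and the highest and lowest fold change of each pathway list. Smurf1, Fat1, Fat2, Fzd5, Lrp5, Wnt16, Pard3, Gsk3b, Nkd2 and Znrf3 were named after their values were seen, because their lists had few calls. Some genes set by name and 1 list are not reported here. The members and lists were chosen with earlier results of these data known. The alternatives were other scalings, filters, a replicate block, each library left out, DESeq2 1.42.0, limma-voom (limma 3.58.1), no fold threshold and other transcript lengths. The least squares trend, the median and curated RefSeq transcripts in the offset, the RefSeq level length and the offset with libraries left out were added after seeing the data.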

Additional observations from a re-analysis of the deposited data

How the results depend on the processing

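Of the 10 planar cell polarity genes, Dvl3 kept its direction and its call under every alternative. Other scalings, filters and tests and leaving out libraries gave 3 to 4 members called higher and 0 lower, and Celsr1 was the fourth at 0.60 with limma-voom. Its fold change lay between 0.43 and 0.80 with 1 library left out. With no fold threshold 6 members were called higher, and of all genes 4184 higher and 3590 lower. Upper quartile scaling called 1378 genes lower, against 778. The length and GC offset left 1 member called higher, also with the replicate block, the least squares trend, the curated RefSeq transcript and, added to the offset, any library left out (lowest 1, highest 1). With the median transcript in the offset, Celsr2, Celsr3 and Dvl3 were all called higher, at 1.05, 1.53 and 0.65. Members called lower were 1 with the least squares trend and between 0 and 2 with the offset and a library left out, where 603 and between 270 and 526 of all genes were called lower. Of all genes the offset called 1051 higher and 453 lower, and with the block 774 and 376.

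The offset, the offset with the replicate block, the least squares trend and the curated transcript turned these fold changes, in that order: Vangl1 to -0.21, -0.21, -0.26 and -0.22; Vangl2 to -0.41, -0.40, -0.46 and -0.30. Celsr1 went to -0.54, -0.52, -0.58 and -0.54, Celsr2 to -0.14, -0.12, -0.18 and -0.14, Fzd3 to -0.34, -0.34, -0.34 and -0.33, and Dvl1 to -0.37, -0.36, -0.42 and -0.17. Celsr3 kept its direction without a call, at 0.33, 0.36, 0.30 and 0.34. The median of the 10 went to -0.28, -0.28, -0.30 and -0.22. With the median transcript it was 0.14, Fzd3 was at -0.10, Dvl1 at -0.21 and Fzd6 at 0.0901. Dvl2 was called lower at -0.62 with the least squares trend. The offset turned Fzd6/Fzd3 to 0.17, and Vangl2/Vangl1 lay between -0.12 and 0.16 with 1 library left out. The causes were not tested.

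Deviations of pools from their group mean correlated at -0.11, -0.23 and -0.21 between pools with the same replicate number. Between pools with different numbers they correlated at 0.0061 to 0.20. The deviations within a group depend on each other, so these values cannot decide whether the replicate numbers pair the pools. The column of control replicate 1 is headed with the number 4, so its replicate number is uncertain. With the replicate block 2220 genes were called higher and 718 lower, with Celsr1 at 0.60 among them, and 4 members were called higher, while Vangl1 and Fzd3 no longer passed the adjusted p. Celsr3, with 28 to 141 estimated reads per library, was the member most limited by depth.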

Other observations

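Lists outside the polarity pathway were counted in the same fit, where 15.5% of all genes tested were called higher and 5.08% lower. With the offset these shares were 6.87% and 2.96%. Of 11 immediate-early genes tested, which respond to cell stimulation, 5 were called higher and 0 lower, with 5 also called higher with the offset, and their summed normalized counts were 11550 to 12707 in Kir2.1-OE pools and 8270 to 9696 in controls. Of 5 markers of dividing cells, 2 were called higher, Mki67 by a log2 fold change of 2.52 and Top2a. The median of the 5 was 0.27, and Cdk1 was the lowest at -0.13. Of 5 erythrocyte genes 3 were called lower, with 0 called under the offset, and of 4 melanocyte genes tested 2 were called lower with and without it. Of 9 general hair cell markers 1 was called higher, Myo7a at 1.17, and 1 lower, Calb1 at -0.74. With the offset 0 of the 9 were called higher and 1 lower. Of 6 outer hair cell markers 3 were called higher, and 1 with the offset. Chrna10 was the lowest of them at -0.45, and their sums overlapped, at 23204 to 28618 in Kir2.1-OE pools against 25818 to 32128 in controls. Of 8 fibrocyte and mesenchyme markers 2 were called higher and 1 lower, and with the offset 1 and 0. Without the offset, 0 of 6 macrophage markers were called by edgeR, DESeq2 or limma-voom. At edgeR's unadjusted p of 0.05, and also at its adjusted p, 2 macrophage markers passed in the higher and 1 in the lower direction. Over all genes 27.3% and 23.5% passed the adjusted p. With the offset edgeR called 1 macrophage marker higher. Genes of this paragraph were named after their values were seen.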
